A study of Mus musculus with 108 samples.

Results

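The 2 lines of germline stem cell-like cells (GSCLCs), GSCLC1 and GSCLC4, were compared cell by cell. The members were the cells whose column name began with the name of either line, which gave 30 GSCLC1 cells and 24 GSCLC4 cells, or 54 of all cells measured. The other 54 cells came from 2 lines of germline stem cells (GSCs), GSC1 with 30 cells and GSC2 with 24, and served only as a reference. Expression was measured by SC3-seq, which sequences the 3′ ends of polyadenylated RNA after amplification of the cDNA of a single cell, and is given as RPM, the reads of a gene scaled to a fixed total per cell.

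All 4 lines are labelled with the 129/SvJcl x C57BL/6 background, and the cells carry the AcrAct_EGFP reporter. All were grown in 1 medium with the growth factors GDNF, bFGF, LIF and EGF. GSCLC4 was derived from reconstituted testes that had been cultured at 34 °C for 3 weeks, and GSC2 from separate testes of postnatal day 7; how GSCLC1 was derived is not stated in the labels. Each line was 1 culture, so the 54 cells are not replicates of a condition, and every difference below is a difference between 2 lines, without a test. The serial numbers in the cells' names did not overlap between the lines, those of GSCLC4 starting at 91 and all lying below those of GSCLC1, so line and serial number range cannot be told apart.

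Spermatogonial stem cells are the male germline cells that sustain sperm production, and in culture they depend on GDNF, which signals through the receptors Gfra1 and Ret. GSCLCs are cells of this kind that were made from pluripotent cells by way of germ cells placed in a reconstituted testis. Genes of such cells include transcription factors of the undifferentiated state, RNA-binding proteins of the germline, and genes that are normally silenced by DNA methylation outside the germline.

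Both lines expressed markers of germ cells and undifferentiated spermatogonia. Dazl, an RNA-binding protein of germ cells, ranged from 1802 through a median of 3460 to 5608 RPM in GSCLC1 cells and from 1553 through 3173 to 5260 RPM in GSCLC4 cells, with all cells of both lines above the threshold of 5 RPM. Ddx4, a germline RNA helicase, had line means of 986 and 956 RPM, Gfra1 266 and 254 RPM, and Etv5, a target of GDNF signalling, 319 and 296 RPM. The ranges of all 4 genes overlapped between the lines. Zbtb16, a transcription factor of stem cell maintenance, was at 86.4 RPM in GSCLC1 and 77.6 RPM in GSCLC4. Ret had line means of 152 and 113.8 RPM (log2 difference -0.41, GSCLC4 minus GSCLC1 as everywhere below). Larger differences were in Lhx1, a transcription factor induced by GDNF, at 60.8 and 34.4 RPM (-0.80), and in Mael, a piRNA pathway protein, at 643 and 401 RPM (-0.68). Of the pluripotency markers, Pou5f1 and Nanog were near 0: no GSCLC1 cell and 1 GSCLC4 cell reached 5 RPM of Pou5f1, and no cell of either line reached it for Nanog. Zfp42 and Klf4, which other cells also express, were present, at 27.3 and 69.2 RPM and at 13.1 and 18.7 RPM. Nanos2, a marker of the most primitive spermatogonia, reached 5 RPM in 1 and 3 cells. The Sertoli cell hormone Amh was listed at 0 in all 54 cells.

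GSCLC4 cells yielded more genes. Genes with an RPM above 0 numbered 7515 to 9847 (median 8607) per GSCLC1 cell and 8217 to 10959 (median 9866) per GSCLC4 cell, and the GSCLC4 cell had more in 89.7% of all pairs of 1 cell from each line. Depth hardly differed, with estimated medians of 3.19 M and 3.27 M reads and a pair share of 56.4%. With every cell thinned to 2.00 M reads the pair share of detected genes was still 88.8%. Spike-in RNA, added in a fixed amount to each cell's reaction in this kind of assay, went the other way, with medians of 42622 RPM in GSCLC1 and 33737 RPM in GSCLC4. Within each line, cells with more spike-in RPM had fewer detected genes (Pearson r = -0.67 over 30 GSCLC1 cells and -0.71 over 24 GSCLC4 cells, which share libraries and scaling). Whether detection or RNA content of the cells sets the gene differences below was not tested. Each is therefore also given where needed in 2 other ways. An adjusted difference is that of the means over cells of log2(RPM + 1) after a linear adjustment for detected genes, so that it differs from the main value in its scale as well. A difference in the shared range rests on the 18 GSCLC1 and 12 GSCLC4 cells with 8217 to 9847 detected genes, whose medians were still unequal, at 8880 and 9353.5.

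**Figure D1:**
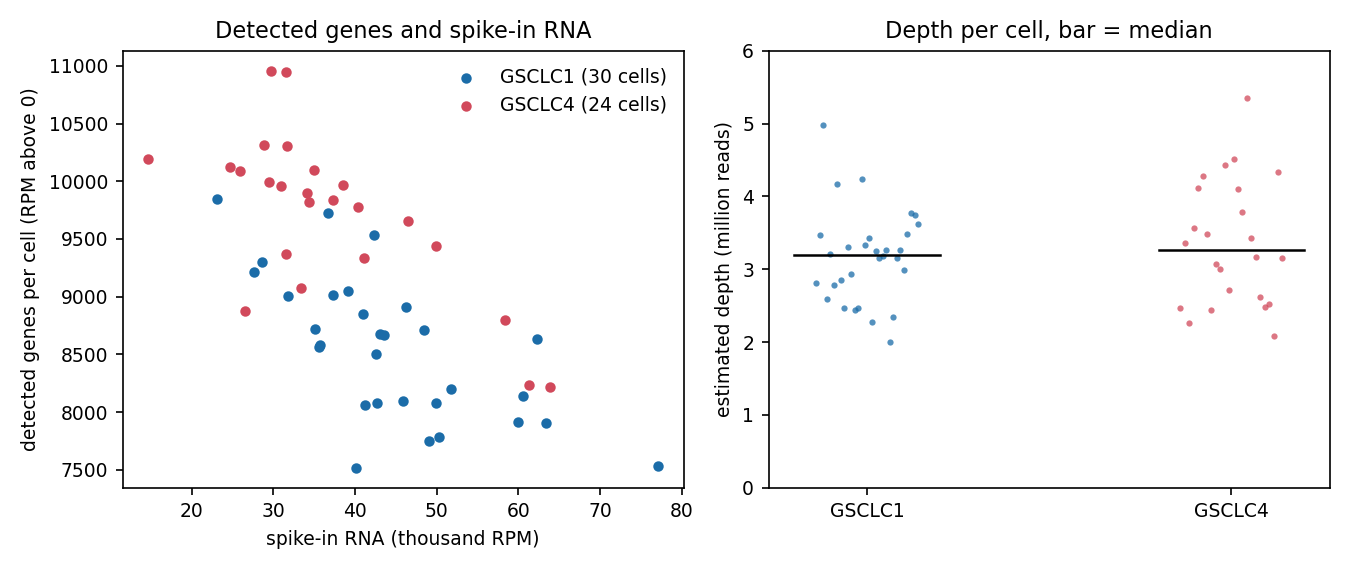
Detected genes per cell (RPM above 0) against spike-in RNA for 30 GSCLC1 and 24 GSCLC4 cells, and estimated depth per cell (M reads) with the line median as a bar. GSCLC4 cells lie higher in detected genes (median 9866 against 8607) at depth medians of 3.27 M and 3.19 M reads.

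Differences between the lines were mostly among genes of low level. Of 10347 genes whose 2 line means averaged 5 RPM or more, 1508 (14.6%) differed at least 2-fold on the log2(mean RPM + 1) scale, 992 (9.59%) higher and 516 (4.99%) lower in GSCLC4. The median difference of all genes was 0.07. As a reference, 14% of genes differed by this measure between GSC2 and GSC1, and 24.2% between the 17 GSC1 cells of serial numbers 129 to 150 and the 13 of 65 to 80, which is a split within 1 line over fewer cells. Without the GSC1 cell of fewest detected genes, which stood apart, these shares were 12.8% and 22.9%. The share between the GSCLC lines was thus close to that between the GSC lines, which had the same numbers of cells. Among genes of 5 to 20 RPM, 20.2% were higher and 10.4% lower. The share of genes 2-fold apart was 6.98% among genes of at least 20 RPM, 2.81% at 50 RPM and 1.36% at 100 RPM, where 22 were higher and 9 lower. With detection taken into account the calls were nearer to even: 1187 higher and 1143 lower after the linear adjustment, and 1231 and 1024 in the shared range, against 2146 and 188 when log2 values of cells were averaged. Scaled to spike-in RNA, 1756 were higher and 245 lower, with a median of all genes of 0.40. A total of 660 genes (6.38%), 425 higher and 235 lower, were 2-fold apart by the line means, after adjustment and in the shared range alike.

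**Figure D2:**
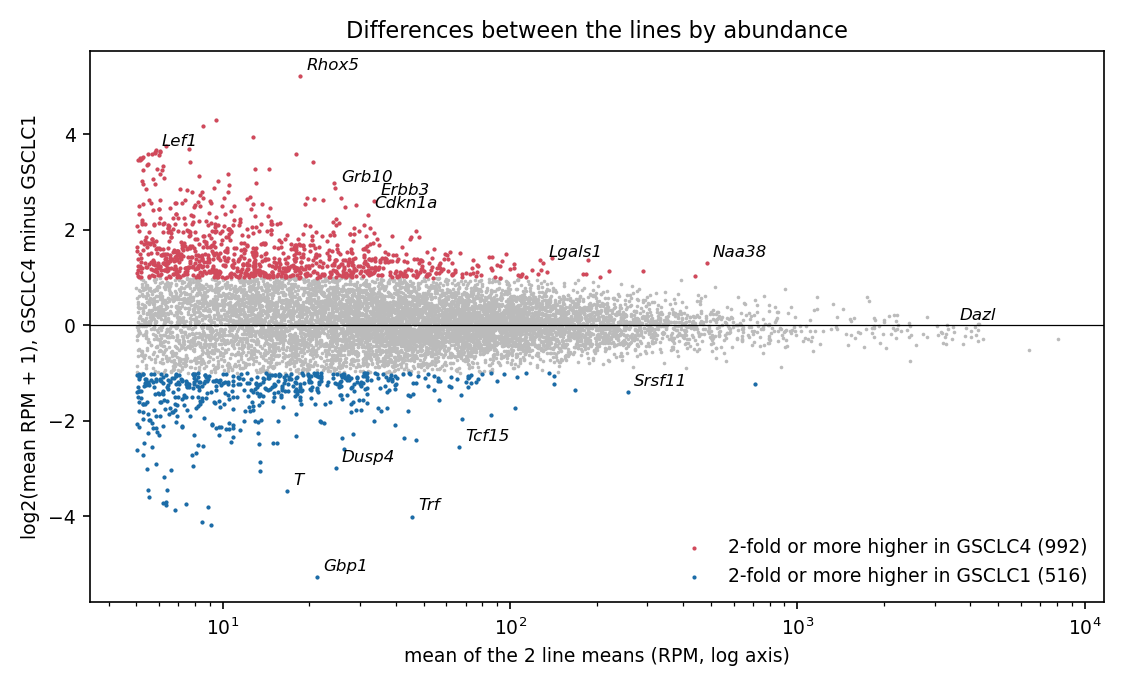
Difference in log2(mean RPM + 1), GSCLC4 minus GSCLC1, against the mean of the 2 line means (RPM, log axis) for 10347 genes; colours mark the 992 genes at least 2-fold higher and the 516 at least 2-fold lower in GSCLC4. The largest differences lie at low levels, and Dazl at the right lies near 0 (-0.03).

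Among genes with at least 50 RPM in GSCLC4 and 5 RPM in at least 50% of its cells, the largest difference was in Erbb3, a receptor tyrosine kinase that binds neuregulins. Erbb3 ranged from 0 through a median of 0 to 113.1 RPM in GSCLC1 cells and from 0 through 40.5 to 212 RPM in GSCLC4 cells. It reached 5 RPM in 5 of 30 GSCLC1 cells (16.7%, exact 95% interval 5.64% to 34.7%, counting error only) and in 18 of 24 GSCLC4 cells (75%, 53.3% to 90.2%), and line means were 8.79 and 58.5 RPM (log2 2.60, 2.08 adjusted for detection). The GSC lines, at 45.1 and 49.0 RPM, lay on the side of GSCLC4. Of 16 counted receptor kinases 6 (37.5%, against 9.59% of all genes and 20.2% of those of 5 to 20 RPM) were at least 2-fold higher, among them Axl (9.48 and 37.7 RPM, log2 1.88), Ror2 (2.54 and 15 RPM, log2 2.18) and Pdgfra (2.10 and 9.06 RPM, log2 1.70, but -0.30 in the shared range of detection), and 1 was lower. Met, the receptor of hepatocyte growth factor, had 8.27 and 27.2 RPM (1.61) and Flt3 8.28 and 27.8 RPM (1.63), while Erbb2 was at -1.05; these 3 were added after their values were seen. The list's median of 0.54, against 0.07 for all genes, turned to -0.35 over its 9 members of at least 20 RPM.

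Single cell cycle inhibitors were among the genes higher in GSCLC4. Of 13 counted D cyclins and CDK inhibitors, 2 (15.4%) were at least 2-fold higher and none lower. For all genes the share higher was 9.59%, and for those of 5 to 20 RPM 20.2%. The median of these 13 was 0.19, and -0.01 adjusted for detection. Cdkn1a, which encodes the p21 inhibitor of cyclin-dependent kinases, had 0 through 0.153 to 93.8 RPM in GSCLC1 cells and 0 through 21.5 to 667 RPM in GSCLC4 cells, with line means of 10.1 and 54.2 RPM (log2 2.32). The top GSCLC4 cell, serial number 99, carried much of this: without it the mean was 27.5 RPM and the difference 1.37. Trp53inp1, a stress-induced p53 target, had means of 19.06 and 71.5 RPM (log2 1.85, 1.34 without that cell), and Eda2r, another p53 target, 2.71 and 38.6 RPM (3.42 and 2.54) with only 3 and 4 cells at 5 RPM. These 3 were the p53 response genes of 18 counted that passed 2-fold upward, and none passed downward. Their share of 16.7% lay between the 9.59% of all genes and the 20.2% of those of 5 to 20 RPM. The p53 list's median of 0.41 was 0.13 without that cell and -0.23 adjusted for detection. Cdkn1b, encoding the inhibitor p27, had means of 2.25 and 15.6 RPM (log2 2.35) and reached 5 RPM in 4 and 12 cells.

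Of the cycling genes, S phase genes had a median difference of -0.21 over 31 counted members with 1 lower (Chaf1b, a histone chaperone subunit of DNA replication, -1.51). G2 and M phase genes had 0.15 over 31 with 1 higher (Hmmr, a spindle protein, 1.06). The median of all genes was 0.07. Each of these calls was 3.23% of its list, below the 4.99% of all genes that were lower and the 9.59% that were higher. The G2 and M median was -0.76 after adjustment for detection.

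The remaining genes of large difference had varied roles. Asph, an aspartate hydroxylase, had means of 7.93 and 50.1 RPM (log2 2.52). Rlf, a zinc finger protein, had 18.5 and 75.8 RPM (1.98), and Usp31, a deubiquitinase, 16.2 and 61.5 RPM (1.86). The differences of 1810019J16Rik, Asb9, Nxf3 and Ebag9 were 2.03, 1.80, 1.73 and 1.71. Neb, the muscle protein nebulin, and Trio, a guanine nucleotide exchange factor, had differences of 1.94 and 1.80 that shrank to 0.45 and 0.70 in the shared range of detection. Htra2, a mitochondrial protease on chromosome 6, had 12.9 and 50.2 RPM (1.88).

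Among genes with at least 50 RPM in GSCLC1 and 5 RPM in at least 50% of its cells, Trf and Tcf15 had the largest differences in the other direction. Trf, the iron carrier transferrin, had 0 through 22.6 to 490 RPM in GSCLC1 cells and 0 through 0 to 67.6 RPM in GSCLC4 cells, and reached 5 RPM in 17 of 30 and 4 of 24 cells. Its means were 86.9 and 4.46 RPM (log2 -4.01, -3.52 adjusted), and GSC lines had 23.7 and 12.1 RPM. Tcf15, a bHLH transcription factor, had 0 through 85.6 to 314 RPM and 0 through 3.92 to 91.8 RPM, with means of 113.8 and 18.5 RPM (-2.56, -3.26 adjusted). The GSC lines lay between, at 39.9 and 40.1 RPM. Only 13.5% of pairs had the higher Tcf15 value in the GSCLC4 cell.

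**Figure D3:**
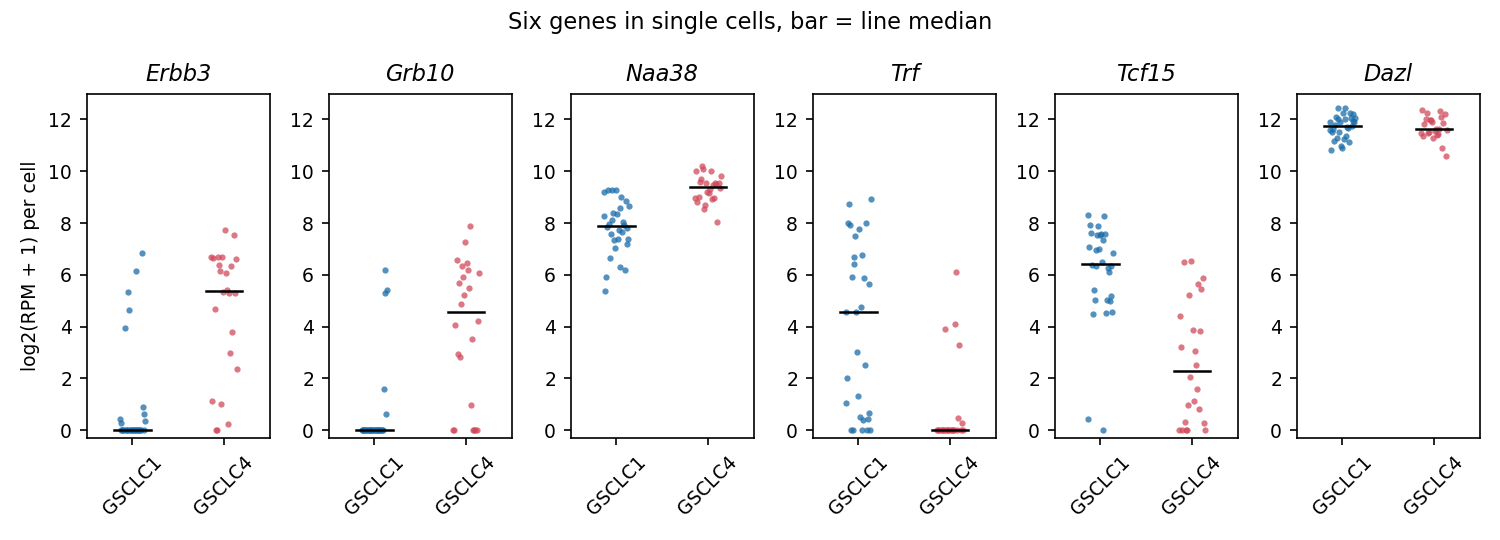
log2(RPM + 1) of 6 genes in each of 30 GSCLC1 and 24 GSCLC4 cells, with the line median as a bar. Erbb3, Grb10 and Naa38 sit higher and Trf and Tcf15 lower in GSCLC4, while Dazl overlaps; Erbb3, Grb10, Trf and Tcf15 include cells at 0 in both lines.

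Among the other abundant genes lower in GSCLC4, Id3, an inhibitor of bHLH factors, had means of 160.1 and 47.5 RPM (-1.73), and Rasgrp2, a Rap activator, 134.8 and 36.2 RPM (-1.87). Echs1, an enzyme of fatty acid oxidation, had 72.05 and 13.2 RPM (-2.36), and Syngr2, a vesicle protein, 108.4 and 26.98 RPM (-1.97). The differences of 0610012G03Rik, Tmem59l, Myof, Dtx3l, Abca2, Lancl2 and Rp9 were -2.41, -1.81, -2.00, -1.72, -1.72, -1.56 and -1.47, and that of 2810407C02Rik, of which 32.6% of values were not whole reads, was -2.08. For Mavs, an antiviral signalling protein, the difference of -1.47 became 0.44 with line medians in place of means.

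Genes that DNA methylation or imprinting normally regulates differed in single members. Rhox5, a homeobox gene that is silenced by methylation, was above 5 RPM in 0 of 30 GSCLC1 cells, which allows a share of up to 10%, and in 9 of 24 GSCLC4 cells (37.5%), where the highest cell had 269 RPM; the GSC lines had means of 1.15 and 2.00 RPM. Rhox10 had means of 20.2 and 75.8 RPM (log2 1.85), the other 2-fold member of 8 counted Rhox genes, whose median was -0.18. The 2 made up 25% of the list, against 9.59% of all genes and 20.2% of those of 5 to 20 RPM. Grb10, an adaptor that is expressed mostly from the maternal allele, ranged from 0 through 0 to 71.8 RPM in GSCLC1 and from 0 through 23.2 to 232 RPM in GSCLC4, with means of 5.14 and 44.1 RPM (2.88) and GSC means of 6.32 and 3.41 RPM. Of 15 counted maternally expressed genes 3 were higher and 1 lower, and of 15 paternally expressed ones also 3 and 1. These shares, 20% and 6.67%, were above those of all genes (9.59% and 4.99%) and near or below those of genes of 5 to 20 RPM (20.2% and 10.4%). Atp10a and Ddc were at 1.36 and -1.19 (Atp10a -1.11 in the shared range). Zdbf2 had 8.23 and 40.2 RPM (2.16), Mkrn3 3.28 and 15.5 RPM (1.95) and Plagl1, a zinc finger transcription factor, 4.07 and 15.6 RPM (1.71). The median of the paternally expressed list was 0.39, and 0.23 to 1.11 above that of all genes in each of the 15 settings run.

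Germline and meiosis genes differed in both directions. Tex19.1, a germline protein that restrains retrotransposons, had means of 22.6 and 3.95 RPM (-2.25) against 43.5 and 31.5 in the GSC lines. In the same list of 29 counted genes, 3 (10.3%, near the 9.59% of all genes) were higher. They were Exd1, a piRNA factor (11.1 and 51.1 RPM, 2.10), Piwil1, a PIWI protein (5.32 and 24.2 RPM, 1.99), and Magea8 (1.03), named because it completes the count. Magea10, an X-linked germline gene, was at -1.22. Meiosis genes had a median of 0.37 over 24 counted members, with Sycp1, of the synaptonemal complex, at 72.99 and 164.7 RPM (1.16) and Mei4, of the recombination machinery, at 4.29 and 20.99 RPM (2.06). Stra8, which marks the entry into meiosis, was at 8.82 and 3.36 RPM (-1.17), and it reached 5 RPM in 6 and 5 cells. The meiosis median lay above that of all genes by 0.22 to 0.43 in the 15 settings.

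Lists of the stem cell programme differed in few members. Over 27 counted genes of undifferentiated spermatogonia the median was -0.08, with 1 higher (Sox3, 3.71 and 22.1 RPM, 2.29) and 2 lower. These were 3.70% and 7.41%, against 9.59% and 4.99% of all genes. The brachyury gene T had means of 31.6 and 1.92 RPM (-3.48) that rested on 6 and 1 cells at 5 RPM, and Pou3f1, a GDNF-dependent transcription factor, was at 46.5 and 22.5 RPM (-1.01). Mycn, also induced by GDNF, had 22.1 and 59.5 RPM (1.39). The differentiation genes Sohlh1 (-2.34) and Crabp1 (1.02) and the retinoic acid genes Aldh1a3 (-2.19) and Crabp2 (2.12) differed in opposite directions. Zfp42, which pluripotent cells and spermatogonia both express, had 27.3 and 69.2 RPM (1.31), though 44.4% of its values were not whole reads. Among the dual-specificity phosphatases that dampen ERK signalling, 2 were lower: Dusp4, with means of 44.7 and 4.76 RPM (-2.99), and Dusp7, with 17.6 and 7.47 RPM (-1.13). No other of 18 counted FGF and ERK feedback genes passed 2-fold. The share lower was thus 11.1%, against 4.99% of all genes and 10.4% of those of 5 to 20 RPM. Ier2, an immediate early gene, was at -1.01.

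Of 21 counted Wnt pathway genes 3 (14.3%, against 9.59% of all genes) were higher and none lower, with a list median of 0.06 against 0.07 for all genes; this is near the background. Lef1, a transcription factor of the pathway, reached 5 RPM in 0 of 30 GSCLC1 cells and 7 of 24 GSCLC4 cells, and the receptor Fzd7 had means of 14.7 and 40.3 RPM (1.4). The receptor Fzd4 was at 2.85, from 2 and 4 cells at 5 RPM. Chromatin and DNA methylation genes included Bcor (52.9 and 127.6 RPM, 1.26), Phc3 (3.26 and 18.6 RPM, 2.2, with 2 and 7 cells at 5 RPM) and Tdg, a thymine DNA glycosylase (22.2 and 47.3 RPM, 1.06). The Hox genes Hoxa10 and Hoxa13, close to each other on chromosome 6, were at 1.09 and 1.77, and Hoxb8 and Hoxb9, on chromosome 11, at -1.19 and -1.16. Wt1, a transcription factor of somatic testis cells and kidney, was at 1.12.

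Metabolic and stress genes passed in scattered members. They included Pfkm (-1.99), Egln3 (1.94, but -0.24 adjusted for detection) and Ndrg1 (1.57) of glycolysis and hypoxia, and Bag3 (1.69) of the chaperones. Of lipid synthesis they included Scd1 (1.45) and Sc4mol (-1.14, but 0.19 without the 10 cells that had a chromosome far from the rest). Gpx7, Gpx8 and Mgst3 (1.31, -1.34 and 1.3) are antioxidant enzymes. Of 23 counted glycolysis and hypoxia genes 3 were higher and 1 lower. Of 36 counted antioxidant and selenoprotein genes 4 were higher and 3 lower, of which at most 3 are named. Among all genes 9.59% were higher and 4.99% lower. Gpx7 and Mgst3 changed sign, Gpx7 to -0.69 in the shared range and Mgst3 to -0.22 after adjustment. Psmg2, a proteasome chaperone, was higher in more cells: its means were 44.6 and 108.1 RPM (1.26), and 80.7% of pairs had the higher value in GSCLC4. Psmb8 (-1.08) rested on 2 cells in each line and turned to 0.77 in the shared range. H2-Q7 (-1.20), Ifi35 (1.13, -0.26 in the shared range), Ifitm2 (-1.07) and Ifitm3 (1.97, -0.04 with line medians) are genes of the interferon response.

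The lists of cytosolic ribosomal proteins and of the nuclear respiratory chain held no 2-fold member. Cytosolic ribosomal protein genes were lower on balance, with 61 of 81 counted members below 0 and a median of -0.15, against 0.07 for all genes. Rps15, of which 9.26% of values were not whole reads, had means of 709 and 423 RPM (-0.74). Genes of the nuclear respiratory chain had a median of -0.09 over 76 members. Both lists lay below the median of all genes in all 15 settings, but their medians turned positive, to 0.13 and 0.17, when cells were scaled to spike-in RNA.

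Markers of other cell types differed as well. Of 12 counted fibroblast and feeder genes 3 (25%) were higher and 1 (8.33%) lower, against 9.59% and 4.99% of all genes and 20.2% and 10.4% of those of 5 to 20 RPM. The list's median was 0.53, and the summed level of all 24 listed genes ranged from 52.8 through 331 to 1108 RPM per GSCLC1 cell and from 247 through 501 to 1388 RPM per GSCLC4 cell (69.4% of pairs higher in GSCLC4). Sparc, a matrix protein, had means of 3.21 and 21.8 RPM (2.43) and Fbn1, fibrillin, 1.32 and 9.14 RPM (2.13); Prrx2 was at -1.81. Of the other fibroblast markers, Col1a2 and Col3a1 were at or below 0.51 RPM in both lines. Col1a1 was present, at 10.5 and 14.8 RPM, with 36.7% and 54.2% of cells at 5 RPM. Vim was at 35.0 and 58.4 RPM and Acta2 at 4.15 and 1.15 RPM. Of 9 counted Sertoli cell genes 3 (33.3%) were higher and 2 (22.2%) lower, against the same shares of all genes. Their median of 0.57 was -0.25 after adjustment, and the summed level of the list was higher in GSCLC4 in 49.4% of pairs. Gata4 and Cldn11 were at 0 in all GSCLC1 cells. The laminins gave Lamb1 (45.2 and 123 RPM, 1.43), Lama3 (1.94) and Lamb2 (-2.68), and Lgals1, a galectin, had 74.3 and 185.2 RPM (1.31) against 806 and 341 RPM in the GSC lines. The GSC1 mean includes the cell of fewest detected genes, whose fibroblast and feeder genes summed to 76279 RPM (GSC1 median 615 RPM). The part of that cell in the GSC1 mean of Lgals1 was not tested. Krt19 and Krt18 were at 1.65 and -1.33. Ptprc, the leukocyte antigen CD45, had 0.84 and 9.74 RPM and reached 5 RPM in 1 and 4 cells (2.54). The part of such cells or their RNA in these differences was not tested.

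Few genes kept the cells of the lines apart. The GSCLC4 cell was higher in at least 80% of pairs for 74 genes (0.715%) and the GSCLC1 cell for 36 (0.348%). Values that were not whole reads, as arise when reads are divided between copies of a gene, made up over 20% for 45 and 25 of them, against 933 of all 10347 genes. Of the 29 remaining genes higher in GSCLC4, 9 lay on chromosome 6, which holds 4.71% of the genes counted. The genes of these sets named next were chosen after their values were seen.

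The gene listed as Naa38 (chromosome 6, 18848635 to 18854052, in GRCm38.p6) separated the lines most. It had 40.8 through 235 to 622 RPM in GSCLC1 cells and 263 through 675 to 1191 RPM in GSCLC4 cells (91.7% of pairs, log2 1.3). Rpn1, of the glycosylation machinery of the endoplasmic reticulum, had means of 288 and 590 RPM (83.9% of pairs), and Sec61a1, a subunit of the protein translocon, 377 and 660 RPM (83.9%). Fgfr1op2 had 70.1 and 183.7 RPM (86.4%). The GSC lines had Naa38 means of 294 and 391 RPM and Rpn1 means of 285 and 259 RPM, near GSCLC1. Off chromosome 6, Rragd, a GTPase of the nutrient-sensing mTORC1 pathway, had 104 and 268 RPM (84.6%).

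Chromosome 6 stood apart in its median over all genes, though not along its whole length. The median difference of its 487 counted genes was 0.33, with 69.8% of genes above 0, against medians of -0.01 to 0.17 on the other chromosomes and 0.03 for chromosome 6 between GSC2 and GSC1. Its genes made up 4.17% through 4.56% to 7.03% of the gene RPM of GSCLC1 cells and 5.22% through 5.78% to 6.23% of GSCLC4 cells, the GSCLC4 cell being higher in 92.2% of pairs. For each cell, the median log2 ratio of its chromosome 6 genes to the GSC means was also taken relative to the cell's own median over all genes, using genes of at least 50 RPM. This value ranged from 0.14 through 0.34 to 0.55 in GSCLC4, with all 24 cells above 0, and from -0.16 through 0.02 to 0.88 in GSCLC1. Among GSCLC1 cells, 2 lay above 0.5, at 0.64 and 0.88. Relative to the mean of the GSC lines, the chromosome 6 median was 0.41 for GSCLC4 and 0.10 for GSCLC1.

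The difference followed position along the chromosome. The 278 counted genes from 80 Mb on had a median of 0.48, with 79.5% above 0, and the 209 genes before it 0.11, with 56.9% above 0. This cut was placed after the differences had been seen, so the contrast of the parts describes them only. In steps of 10 Mb, medians from 80 Mb on were 0.30 to 0.66, and between 20 and 50 Mb they were -0.22 to -0.01; the steps from 10 and from 50 Mb were at 0.40 and 0.33. DNA copy number was not measured in these data, and neither it nor another source of the difference was tested.

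**Figure D4:**
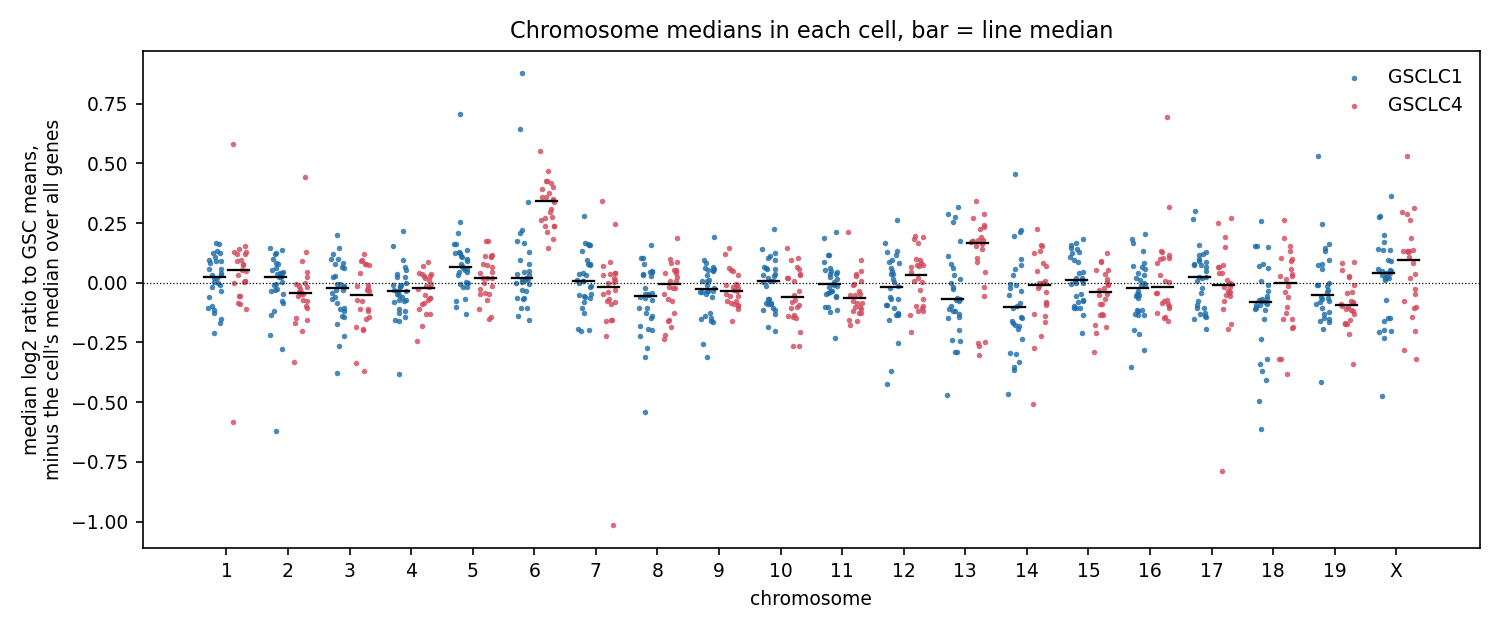
For each GSCLC cell and chromosome, the median log2 ratio of genes of at least 50 RPM to the GSC means, minus the cell's own median over all genes; bars are line medians. On chromosome 6 all 24 GSCLC4 cells lie above 0 (0.14 to 0.55), around a median of 0.34 against 0.02 in GSCLC1.

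A scan of windows of 20 neighbouring genes of at least 20 RPM found 9 regions where the median differed by at least 0.5, from 1.66% of 6432 windows, against 1 region, from 0.0318% of 6287 windows, between GSC2 and GSC1. Of the 9, 4 lay on chromosome 6 from 83480214 to 149335663, with medians of 0.50 to 0.54 and values of 0.53 to 0.60 against the GSC lines. All 9 regions were picked by these same differences, so their medians and gene counts describe them only.

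On chromosome 3 the genes from 138458960 to 158067090 were lower in GSCLC4, with a median of -0.73 over 30 genes, 23 of them below 0 and 9 by at least 2-fold. Against the GSC lines the region was at -0.68 in GSCLC4 and -0.05 in GSCLC1, so that GSCLC4 was the line that lay apart. Srsf11, a splicing factor in it, had 3.17 through 349 to 1001 RPM in GSCLC1 cells and 0.32 through 130 to 366 RPM in GSCLC4 cells (log2 -1.39), and GSC means were 258 and 255 RPM. Gbp1, an interferon-induced GTPase, reached 5 RPM in 33.3% of GSCLC1 cells and in 0 of 24 GSCLC4 cells, which allows a share of up to 12.5%, against 30% and 62.5% of GSC1 and GSC2 cells. Gng5, a G protein subunit, had means of 992 and 425 RPM, with 88.9% of values not whole reads.

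The regions on chromosomes 1 and 12 were higher in GSCLC4, at 0.48 over 26 genes and 0.48 over 29. After adjustment for detected genes the region on chromosome 1 was at -0.018. That on chromosome 12 was at 0.35 to 0.99 over the 15 settings, which used the same cells that picked it and so lend it no support. Against the GSC lines, GSCLC4 was at 0.31 and 0.36 in the regions on chromosomes 1 and 12, and GSCLC1 at -0.13 and -0.03. The 2 GSC lines themselves differed there, by 0.06 and 0.23 (GSC2 minus GSC1). The regions on chromosomes 4 and X held 13 of 34 and 10 of 21 genes with values that were often not whole, and without these genes their medians were 0.06 and -0.24.

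Line and detection ran together in the main axis of variation. In a principal component analysis of the 54 cells, the first component held 5.62% of the variance, the GSCLC4 cell lay higher in 90.97% of pairs, and its correlation with detected genes within a line was 0.84 over 30 GSCLC1 cells and 0.87 over 24 GSCLC4 cells. Erbb3 was the gene of largest weight at its GSCLC4 end and Tcf15 at the other. The second component held 3.08% and followed the expression of G2 and M phase genes (r = 0.73 and 0.85), with Mki67 and Aurkb at one end. Its pair share of 42.9% did not set the lines apart.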

How the data were processed

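The authors deposited 1 table of expression signal in RPM for 26218 genes and 92 spike-in RNAs, and gene values sum to 1000640 to 1001485 RPM a cell. Per the submitters' processing notes, the tools were Cufflinks 2.2.0, TopHat 1.4.1 and cutadapt 1.3, with the build mm10. For multiply mapping reads the treatment is not given in the sources. Depth (2.00 M to 5.35 M reads in the GSCLC cells) was read from the most frequent value above 0, which stands for 1 read; within 0.05 read, 85.6% to 92.4% of values in a cell came out whole, too few for a count model. Some values above 0 were far below 1 read.

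Cells were assigned to lines by title. Differences are log2(mean RPM over cells + 1), GSCLC4 minus GSCLC1, which understates changes of low genes; genes with a mean of the 2 line means of at least 5 RPM were counted and 2-fold was the call. Adjusted differences are of means over cells of log2(RPM + 1). With 1 culture a line no test, standard error or p-value was made. Exact (Clopper-Pearson) 95% intervals of shares of cells, and upper limits of 3 cells for a share of 0, cover counting error only. Positions are those of GRCm38.p6, matched by Entrez identifier (24615 genes, 93.9%). Y-linked and mitochondrial genes were not analysed here. The code, in Python 3.11.15 with pandas 2.3.3 and scipy 1.17.1, was tested on simulated data.

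The text names the 15 largest differences in each direction among genes whose higher line had a mean of 50 RPM or more and 50% of cells or more at 5 RPM, up to 3 members of each of 43 lists that pass 2-fold, and fixed genes. The members and lists were chosen with earlier results of these data known. Several choices were made after seeing the data. They were the pair share of 80%, the limit of 20% on values that are not whole, and the windows and regions. The cut of chromosome 6 at 80 Mb, the chromosome values of single cells and the genes plotted were also chosen then.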

Additional observations from a re-analysis of the deposited data

How the results depend on the processing

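Of 98 named genes that passed 2-fold, 60 to 98 passed it in each of the 12 alternatives that kept all of them. A pseudocount of 10 RPM left 390 genes 2-fold apart (278 higher, 112 lower), a filter at 20 RPM 490 (321, and 1.7e+02 lower, which is 2.41%) and no filter above 0 RPM 3539 (2265, 1274). Means of log2 values gave 2334 (2146, 188), line medians 3058 and 2713 higher, and the adjustment for detected genes 2330, with 1143 lower. The shared range of detected genes gave 1024 lower, and spike-in scaling 1756 higher and 245 lower. No cell lay over 3 median absolute deviations from its line's median of detected genes, so leaving such cells out changed nothing. Detected genes differed by 1259 between line medians and by 1214 to 1281.5 in the alternatives.

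Signs turned for Mavs (0.44) and Ifitm3 (-0.038) with line medians; for Psmb8 (0.48) without the highest cell of each line; for Egln3 (-0.24), Psmb8 (0.064) and Mgst3 (-0.22) after adjustment; for Pdgfra (-0.30), Atp10a (-1.11), Egln3 (-0.45), Psmb8 (0.77), Gpx7 (-0.69) and Ifi35 (-0.26) in the shared range; and for Ifitm3 (-1.002) and Sc4mol (0.19) without the 10 cells of a far chromosome. Of 38 lists, 8 had a median at least 0.25 above and 4 at least 0.25 below that of all genes. Those below were 1 with a pseudocount of 10, 2 with the filter at 20 RPM, 1 without a filter, 10 with means of log2 values and with line medians, 7 after adjustment and 9 in the shared range; those above were 5 with means of log2 values and 4 after adjustment. Only 11 lists, 3 above and 8 below, kept their side in all 15 settings. Chromosome 6 stayed above all genes by 0.18 to 0.30. The pair share limit of 80% was passed by 123 and 8 genes after spike-in scaling, by 29 and 11 without genes of split reads, and by 86 on the GSCLC1 side in the shared range. The causes of these moves were not tested.

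No paired analysis was possible because the lines share no replicate numbers and no test was made.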

Other observations

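In 10 of the 54 GSCLC cells at least 1 chromosome had a median 0.5 or more away from the cell's own median over all genes. Such cells were not particular to the GSCLC lines, since both GSC lines held them too. The farthest values there were -4.36 for chromosome 13 in a GSC1 cell and -1.08 for chromosome X in a GSC2 cell. In the GSCLC4 cell of serial number 99, chromosome 7 was at -1.02 and chromosome 16 at 0.69. In another GSCLC4 cell chromosome 17 was at -0.79. In 1 GSCLC1 cell chromosomes 2 and 18 were at -0.62 and -0.61, and in another chromosome 5 was at 0.70. These 4 cells also had the highest summed RPM of the p53 response genes in their lines, at 5987 and 1490 RPM in GSCLC4 and 1542 and 1278 RPM in GSCLC1, against line medians of 732 and 620.5 RPM. Cell 99 had 667 RPM of Cdkn1a, 1525 RPM of Ccng1, a p53-induced cyclin, and 554 RPM of Mdm2, the ubiquitin ligase that degrades p53. The other 6 GSCLC cells of this kind ranked lower: 4th, 16th and 17th of 24 in GSCLC4 and 16th, 25th and 30th of 30 in GSCLC1. Median p53 sums of cells with and without such a chromosome were 1076 and 722 RPM in GSCLC4 and 619.9 and 621 RPM in GSCLC1. The overlap was noticed in these data and was not tested.

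On chromosome 13, GSCLC4 cells had a median value of 0.17 and GSCLC1 cells -0.07, and the GSCLC4 cell was higher in 70.6% of pairs. GSC1 and GSC2 cells had medians of -0.02 and 0.03 by this value. The median difference of its 361 counted genes was 0.14, however, and that between GSC2 and GSC1 was 0.14 as well.

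Xist, the RNA of X inactivation and below the level at which genes were counted, reached 5 RPM in no GSCLC1 cell and in 2 GSCLC4 cells.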
